A study of Mus musculus with 6 samples.

Results

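The transcripts described here are 9 genes that mark B lymphocytes (Cd79a, Cd79b, Ms4a1, Cd22, Cd83, Ighm, Ighd, Igkc and Fcmr), read from liver RNA of insulin-resistant mice. They were taken by gene name from a table of 54532 genes, and they had been selected on values measured in these same 6 libraries, namely their spread among the vehicle libraries and their difference between the groups. Those values are therefore given as a description, with no test. The liver samples came from male C57BL/6J mice that ate a high-fat diet for 6 weeks from the age of 8 weeks, which defines the insulin-resistant (IR) state. After 16 h without food, the 3 IR insulin mice received 0.75 units of insulin per kg body weight by intraperitoneal injection and the 3 IR vehicle mice received bovine serum albumin (BSA). Both groups were sampled 6 h later, and the study had 3 biologically independent mice per group, each giving 1 library of 18449986 to 21827619 read counts. Hepatocyte markers, 7 of which were found by name, summed to 67690 to 178000 CPM (counts scaled to the TMM effective library size). The libraries are whole liver, so a B cell transcript can come from resident cells or from blood left in the organ, and fewer cells of a type cannot be told apart from less RNA per cell.

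A B cell carries an antibody on its surface as its antigen receptor. Ighm and Ighd encode the constant regions of the IgM and IgD heavy chains and Igkc that of the kappa light chain, while Cd79a and Cd79b encode the paired chains that pass the signal into the cell. Ms4a1 encodes CD20, a membrane protein of B cells before they become plasma cells. CD22 is an inhibitory co-receptor, and Fcmr encodes a receptor for the Fc part of IgM. CD83 is a surface protein of activated lymphocytes and mature dendritic cells. Plasma cells, the end stage of the lineage, secrete antibody, and the J chain (Jchain) joins IgM or IgA into polymers.

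One vehicle library, replicate 2, held most of the Ighm, Igkc and V segment counts of the 6. Among its reads, those of the variable (V) segments, which give each antibody its specificity and differ from clone to clone, fell mainly on Igkv3-2, with Ighv1-72 next. The last 300 germline coding bases of these segments are shown, 5′ to 3′, because they carry that result. Capitals mark bases that differ from the most similar other segment of the same chain and coding length (Igkv3-1 and Ighv1-62-3).
Igkv3-2: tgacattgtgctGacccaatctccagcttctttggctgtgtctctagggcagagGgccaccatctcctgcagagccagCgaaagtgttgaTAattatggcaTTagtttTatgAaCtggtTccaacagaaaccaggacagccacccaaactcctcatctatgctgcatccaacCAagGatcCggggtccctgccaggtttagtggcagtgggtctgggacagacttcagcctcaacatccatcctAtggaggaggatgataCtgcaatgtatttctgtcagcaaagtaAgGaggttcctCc
Ighv1-72: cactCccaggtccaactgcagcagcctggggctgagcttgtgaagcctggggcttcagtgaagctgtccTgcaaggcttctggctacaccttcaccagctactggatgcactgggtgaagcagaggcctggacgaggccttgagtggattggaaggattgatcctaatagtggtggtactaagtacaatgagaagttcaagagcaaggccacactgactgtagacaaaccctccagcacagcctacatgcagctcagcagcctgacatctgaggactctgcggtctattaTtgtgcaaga
Igkv3-2 lies on chromosome 6, chr6:70698449-70699067, plus strand, and Ighv1-72 on chromosome 12, chr12:115757984-115758461, minus strand (build 38, GENCODE release 21). Over the whole coding sequence, Igkv3-2 differed from Igkv3-1 at 26 of 359 bases (20 of them in the stretch shown), an identity of 92.8%. Ighv1-72 differed from Ighv1-62-3 at 3 of 351, all within the stretch shown, an identity of 99.1%, so its reads can be split with that segment and its count is uncertain.

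B cell transcripts were scarce in these livers. On the CPM scale, 1 count came to 0.0433 to 0.0614 CPM. The 9 genes together summed to 9.31, 81.7 and 12.1 CPM in vehicle replicates 1, 2 and 3 and to 21.9, 8.10 and 6.18 CPM in insulin replicates 1, 2 and 3. Vehicle replicate 2 stood above the other 5 libraries. It was the highest library for 7 of the 9 genes, and insulin replicate 1 was the highest for the remaining 2, Cd79a and Ighd. Among the 6 genes that passed the filter on low counts (Cd79b, Ms4a1, Cd22, Cd83, Ighm and Igkc), vehicle replicate 2 was the highest library for all 6. It was so for 35.8% of the 13377 genes tested. The selection on spread among the vehicle libraries favours such genes, and the 2 genes highest elsewhere failed the filter, so no excess over that share is claimed. Cd79a, Ighd and Fcmr had totals of 48, 64 and 40 counts over the 6 libraries and did not pass.

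Per kb of exon, Igkc had the highest median level over the libraries, at 4.92 CPM per kb, followed by Ighm at 1.72, Cd79b at 0.634, Cd83 at 0.378 and Ighd at 0.243. Cd79a, Fcmr, Cd22 and Ms4a1 followed with medians of 0.181, 0.170, 0.168 and 0.0964 CPM per kb. The ranges over the 6 libraries overlapped for each pair of neighbours in this order. The exon length of Ms4a1 (6187 bases) includes transcripts that keep introns, which lowers its value on this scale.

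**Figure D1:**
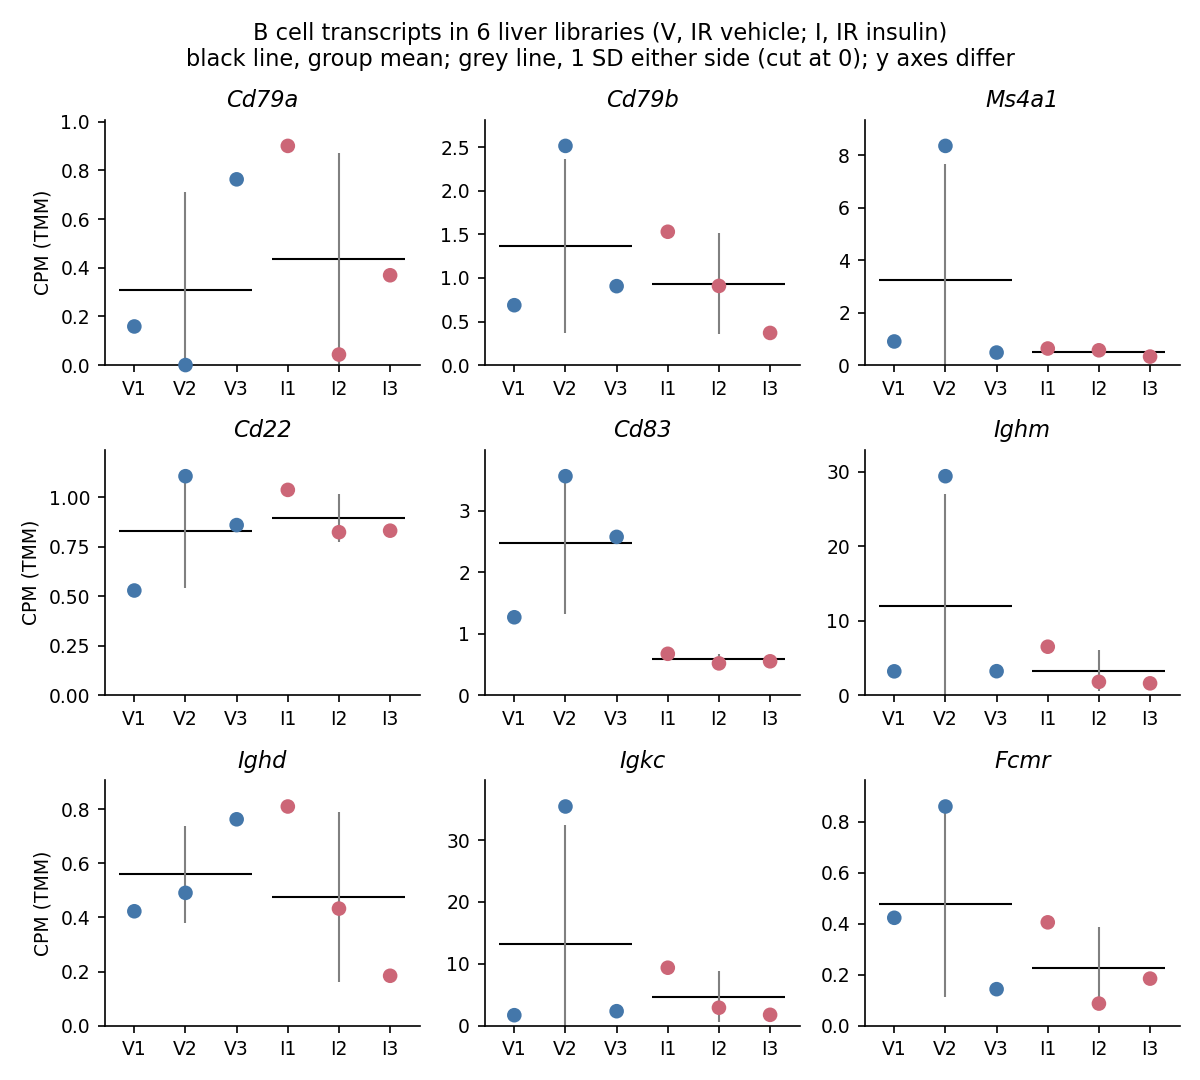
TMM-normalized level (CPM, y axis from 0, scaled per panel) of the 9 B cell transcripts in each library (x axis: V1 to V3, IR vehicle replicates 1 to 3; I1 to I3, IR insulin replicates 1 to 3), with group means (black) and SD (grey). Vehicle replicate 2 is the highest point in 7 of the 9 panels and lies at 0 for Cd79a, and only for Cd83 do all insulin points lie below all vehicle points.

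The heavy and light chain constant regions spread widely among the vehicle libraries. Ighm (ENSMUSG00000076617, chromosome 12, 113418558 to 113422730, minus strand) was counted 61, 479 and 68 times in the vehicle libraries and 145, 42 and 35 times in the insulin libraries. This corresponds to 3.23, 29.4 and 3.24 CPM with vehicle against 6.53, 1.82 and 1.61 CPM with insulin. The groups overlapped, with vehicle replicate 2 far above and vehicle replicates 1 and 3 between insulin replicate 1 and the other insulin libraries. The mean was 12.0 ± 15.1 CPM for IR vehicle against 3.32 ± 2.78 CPM for IR insulin (SD, n = 3), and the log2 fold change (insulin relative to vehicle) was −1.84 ± 0.96 (SE). Without vehicle replicate 2 it was 0.040.

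Igkc (ENSMUSG00000076609, chromosome 6, 70726435 to 70726966, plus strand) followed a similar order. Its vehicle values were 1.69, 35.4 and 2.34 CPM and its insulin values 9.37, 2.90 and 1.75 CPM, from 32 to 577 counts. Vehicle replicate 2 was 3.78 times the next library, insulin replicate 1, and for Ighm this ratio was 4.50. The log2 fold change of Igkc was −1.49 ± 1.15 (SE) with all libraries and 1.21 ± 0.71 without vehicle replicate 2, so that its direction turned with that library. It was also positive, at 0.98, with voom and sample quality weights. Ighd (ENSMUSG00000104213, chromosome 12, 113406604 to 113416324, minus strand), which naive B cells express together with IgM, did not share the excess of vehicle replicate 2. It was counted 8, 8 and 16 times with vehicle and 18, 10 and 4 times with insulin, or 0.423, 0.491 and 0.763 CPM against 0.810, 0.433 and 0.185 CPM.

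The V segments, counted as genes of their own, were read beside the constant regions. Of 348 segments listed, 10, 32 and 23 had a count in vehicle replicates 1, 2 and 3 and 52, 18 and 14 in insulin replicates 1, 2 and 3. These segments were examined after the constant region values had been seen. Their summed counts were 16, 505 and 40 with vehicle and 138, 27 and 20 with insulin. In vehicle replicate 2, Igkv3-2 alone had 341 of the 505 counts, or 67.5% (95% exact binomial interval 63.3 to 71.6%), and 82.6% of the kappa V counts. The other 5 libraries held 0 to 2 counts of it. Ighv1-72 had 33 counts in vehicle replicate 2, 40.2% of the heavy chain V counts there, and 0 in each other library. In insulin replicate 1 the 138 counts were spread over 52 segments, and the most counted of them, Iglv1, had 11 (7.97%, interval 4.05 to 13.8%). With the most counted segment of each library set aside, vehicle replicate 2 still had the highest V segment level, at 10.1 CPM against 0.687 to 5.72 CPM.

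**Figure D2:**
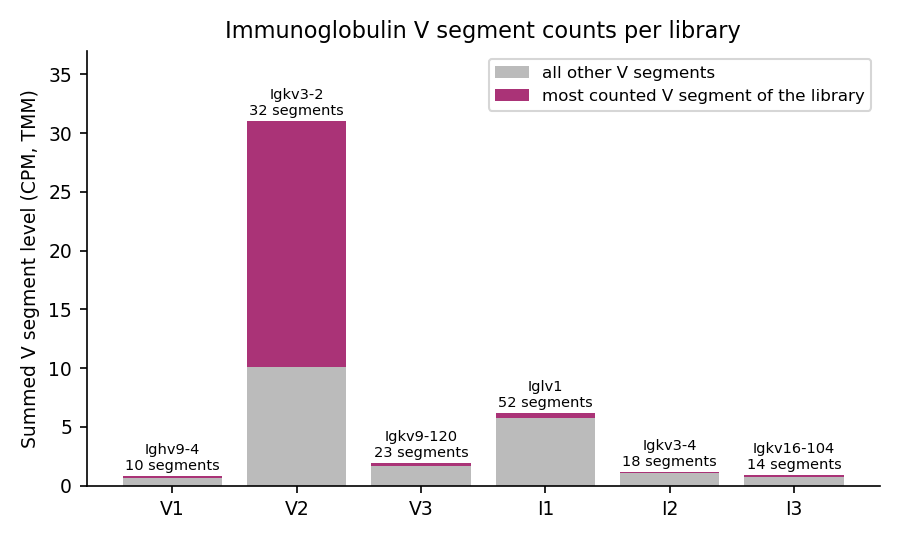
Summed level of immunoglobulin V segments (y axis, CPM) in each library (x axis: V, IR vehicle; I, IR insulin; replicates 1 to 3), divided into the most counted segment of that library (purple, named above the bar; some libraries have ties) and all others (grey), with the number of segments that had a count. Igkv3-2 makes up 67.5% of the bar of vehicle replicate 2, and in the other libraries the named segment had 3 to 11 counts.

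IgG took a larger share of the heavy chain counts in every insulin library than in any vehicle library. Counts of Ighg1, Ighg2b, Ighg2c and Ighg3, the constant regions of IgG, were added because these paralogs can share reads. They made up 7.60, 4.13 and 6.84% of the heavy chain constant counts in vehicle replicates 1, 2 and 3 and 46.7, 39.2 and 32.8% in insulin replicates 1, 2 and 3. The exact 95% intervals were 2.84 to 15.8%, 2.58 to 6.25% and 2.998 to 13.0% with vehicle and 41.5 to 52.0%, 30.6 to 48.3% and 21.3 to 46.0% with insulin. The mean shares with insulin and vehicle were 39.6 ± 6.96% and 6.19 ± 1.82% (SD, n = 3). The measure was chosen after its values were seen, so no test is given. On the CPM scale the groups overlapped, since the summed IgG level was 0.317, 1.29 and 0.382 CPM with vehicle against 7.65, 2.12 and 0.923 CPM with insulin. The share of Ighm was 77.2, 94.3 and 58.1% with vehicle and 39.8, 33.6 and 57.4% with insulin. Igha was at 4, 0 and 25 counts with vehicle and 31, 24 and 2 with insulin, and Ighe at 0 throughout. Kappa made up 72.7 to 95.2% of light chain constant counts, the highest share being that of vehicle replicate 2.

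Jchain moved with Ighm in vehicle replicate 2. It was counted 14, 591 and 16 times in the vehicle libraries and 59, 26 and 6 times in the insulin libraries. The ratio of Jchain to Ighm counts was 1.23 in vehicle replicate 2 and 0.171 to 0.619 in the others. Of 14 plasma cell genes, 5 were highest in vehicle replicate 2 and 5 in insulin replicate 1. Irf4, a transcription factor of plasma cells and activated B cells, had 18 counts in vehicle replicate 2 and 3 to 8 elsewhere. Tnfrsf17, which encodes the receptor BCMA, had 1 count in insulin replicate 2 and 0 elsewhere. Mzb1 had 3 to 7 counts per library, with 7 in vehicle replicate 2 and in insulin replicate 1. Sdc1, Xbp1 and Derl3, which are on the plasma cell list but are expressed by liver as well, supplied most of the list's summed level of 596 to 813 CPM with vehicle against 600 to 709 CPM with insulin. Xbp1 was at 559.6 CPM in vehicle replicate 2 and at 261.6 to 321.4 CPM in the others.

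**Figure D3:**
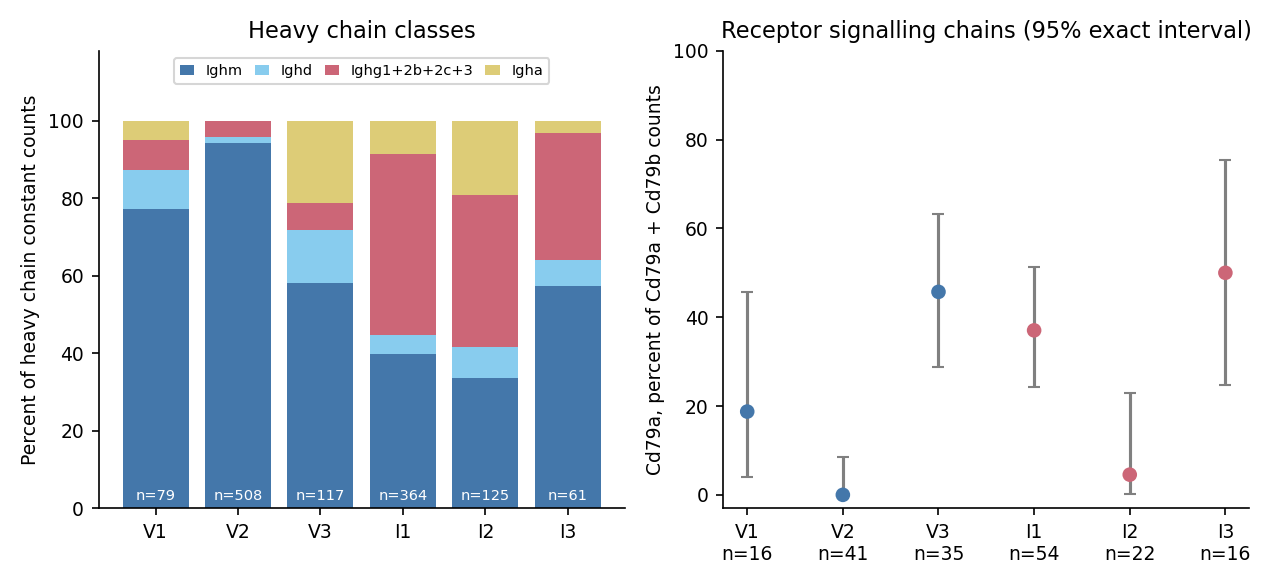
Left, heavy chain constant region classes as a percent of their summed counts (y axis; n, counts) in each library (x axis). Right, Cd79a as a percent of Cd79a plus Cd79b counts with 95% exact intervals (n, counts). IgG takes 32.8 to 46.7% in the 3 insulin libraries and 4.13 to 7.60% in the 3 vehicle libraries, and Cd79a is at 0% in vehicle replicate 2.

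The signalling chains of the receptor did not move together. Cd79b (ENSMUSG00000040592, chromosome 11, 106311341 to 106314762, minus strand) was at 0.687, 2.52 and 0.906 CPM with vehicle against 1.53, 0.909 and 0.369 CPM with insulin, from 8 to 41 counts. It was highest in vehicle replicate 2, and the groups overlapped. Cd79a (ENSMUSG00000003379, chromosome 7, 24897381 to 24902197, plus strand) was counted 3, 0 and 16 times with vehicle and 20, 1 and 8 times with insulin. Its 0 in vehicle replicate 2 allows a level of up to 0.184 CPM (3 counts), in a library where its partner had 41 counts. The transcripts are of like length (1457 and 1431 exonic bases) and GC content (54.9 and 54.2%). The cause of the gap between them was not tested. Cd79a made up 0% of their joint counts in vehicle replicate 2 (exact 95% interval 0 to 8.60%) and 4.55% in insulin replicate 2 (0.115 to 22.8%). The share was 18.8 to 50.0% in the other 4 libraries, on 16 to 54 counts each. Intervals and limits here cover counting error only.

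The log2 fold change of Cd79b was −0.53 ± 0.68 (SE), less than its error, and 0.23 without vehicle replicate 2. No fold change was fitted for Cd79a, whose group means were 0.307 ± 0.403 CPM with vehicle against 0.438 ± 0.433 CPM with insulin (SD, n = 3).

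Ms4a1 (ENSMUSG00000024673, chromosome 19, 11249675 to 11266241, minus strand) had the steepest excess in vehicle replicate 2. It was counted 17, 136 and 10 times with vehicle and 14, 13 and 7 times with insulin, which is 0.899, 8.35 and 0.477 CPM against 0.630, 0.563 and 0.323 CPM. Vehicle replicate 2 was 9.29 times the next library, and the remaining 5 libraries lay between 0.323 and 0.899 CPM with the groups overlapping. For each count of Cd79b there were 3.32 counts of Ms4a1 in vehicle replicate 2 and 0.412 to 1.31 in the other libraries. The log2 fold change was −2.65 ± 1.04 (SE), and −0.43 ± 0.53 without vehicle replicate 2.

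Cd22 (ENSMUSG00000030577, chromosome 7, 30865402 to 30880342, minus strand) was the steadiest of the 9. Its values were 0.529, 1.10 and 0.859 CPM with vehicle against 1.04, 0.823 and 0.830 CPM with insulin, from 10 to 23 counts. The groups overlapped, and the log2 fold change was 0.11 ± 0.45 (SE). Gm29439 runs antisense over 479 of its 5042 exonic bases; whether counting used strand is not given in the sources used here, so reads from both genes cannot be told apart there. Fcmr (ENSMUSG00000042474, chromosome 1, 130865669 to 130880791, plus strand) had 8, 14 and 3 counts with vehicle and 9, 2 and 4 with insulin, or 0.423, 0.859 and 0.143 CPM against 0.405, 0.0866 and 0.185 CPM. Vehicle replicate 2 was again highest, and the groups overlapped.

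Cd83 (ENSMUSG00000015396, chromosome 13, 43784775 to 43803132, plus strand) was the one gene of the 9 whose groups did not overlap. It had 24, 58 and 54 counts with vehicle and 15, 12 and 12 with insulin, which is 1.27, 3.56 and 2.58 CPM against 0.675, 0.520 and 0.554 CPM. All insulin libraries lay below all vehicle libraries, as they did for 6.04% of all genes tested. Unlike Ighm and Igkc, Cd83 was high in vehicle replicate 3 as well. The means were 2.47 ± 1.15 CPM and 0.583 ± 0.0820 CPM (SD, n = 3), and the log2 fold change was −2.07 ± 0.49 (SE). It was negative in all 12 alternative fits, between −2.38 and −1.42, and was −1.71 ± 0.44 without vehicle replicate 2. Since the groups do not overlap, fits to these same libraries could hardly turn the sign, so they are not separate support.

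Cd83 was also read against Cd22, a ratio chosen after the values were seen. There were 2.40, 3.22 and 3 counts of Cd83 per count of Cd22 in the vehicle libraries and 0.652, 0.632 and 0.667 in the insulin libraries, with no overlap. Cd83 alone already separated the groups and Cd22 was steady, on 10 to 23 counts, so the ratio is not a separate result. Cd83 is also a gene of mature dendritic cells, so the dendritic cell markers were read beside it. The summed level of 10 such markers was 9.02 to 9.54 CPM with vehicle against 9.31 to 12.9 CPM with insulin. Zbtb46 supplied 4.44 to 6.80 CPM of each sum, and 6 of the 10 markers had a lower mean with insulin. Xcr1, of cross-presenting dendritic cells, had 9, 4 and 5 counts with vehicle and 4, 3 and 3 with insulin, and did not pass the filter on low counts. This was 0.476, 0.246 and 0.239 CPM against 0.180, 0.130 and 0.138 CPM, where vehicle replicate 2 and insulin replicate 1 had the same count. Ccr7, which marks mature dendritic cells, had 1 to 12 counts per library. Flt3, which dendritic cells share, had 0 to 4 counts per library. The part of dendritic cells in the Cd83 values was not tested.

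**Figure D4:**
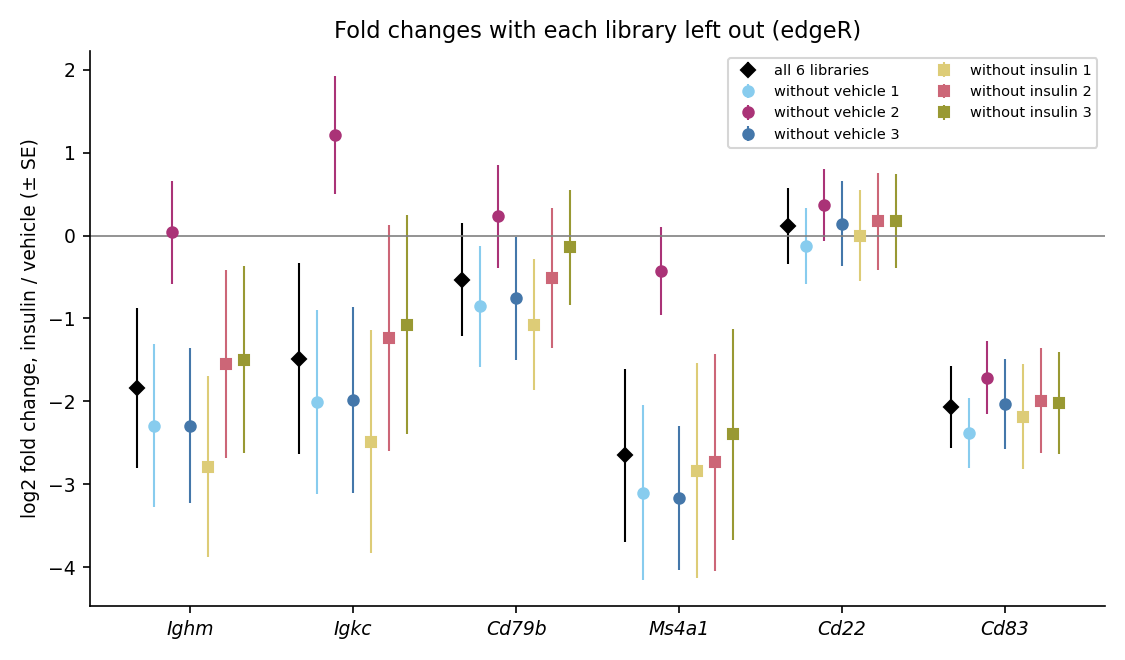
Log2 fold change of insulin relative to vehicle (y axis, ± SE, edgeR) for the 6 B cell transcripts that passed the filter on low counts (x axis), with all 6 libraries (black) and with each library left out. Without vehicle replicate 2 the values of Ighm, Igkc and Cd79b are 0.040, 1.21 and 0.23, and that of Cd83 is −1.71.

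Across the 6 genes that passed the filter, the median log2 fold change was −1.66, with 5 negative and 1 positive, beside a median of −0.017 over all genes tested. The criteria of the study were a log2 fold change of 0.35 or more in size and an unadjusted p under 0.05. Of all genes tested, 2.86% met them in either direction and 1.86% were lower with insulin, but they were not applied to the 6 genes, which had been picked on this contrast. No gene of the whole table passed an adjusted p under 0.05 (edgeR, percent called 0), while 383 genes (2.86%) had an unadjusted p under 0.05. Without vehicle replicate 2 the median of the 6 genes was 0.14. All 6 genes had a larger SD of log2 CPM among vehicle than among insulin libraries, as did 85.2% of all genes tested. Their selection on spread among the vehicle libraries favours this. The median SD was 1.37 with vehicle and 0.666 with insulin for the 6 genes, and 0.518 and 0.182 for all genes. For Igkc the vehicle libraries spanned 4.31 on the log2 scale, more than the size of its fold change, and for Ighm they spanned 3.15. For Cd83 the span was 1.42, less than its fold change.

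Vehicle replicate 2 also differed from the other libraries by base composition, and the excess of B cell transcripts was set beside that. Its log2 CPM minus the median over the other 5 was 3.87 for Igkc, 3.15 for Ighm, 2.24 for Cd83, 1.38 for Cd79b and 0.37 for Cd22. Genes of the same GC content (49.2 to 54.2%, in 20 equal bins) had median deviations of 0.081 to −0.71. Ms4a1, at 40.6% GC, deviated by 3.68, where its bin had a median of 0.82, and Jchain, at 38.2% GC, by 5.40, where its bin had 0.96. With an offset for GC content the log2 fold changes were −2.17 for Ighm, −1.54 for Igkc, −2.08 for Ms4a1 and −2.27 for Cd83. Cd79b moved from −0.53 to −0.98 and Cd22 turned from 0.11 to −0.086. Vehicle replicate 2 also had fewer genes with a count, 16470 against 18389 to 18874 in the other 5 libraries. Its TMM factor was 0.829, against 0.971 to 1.09 in the others. It was the highest library for 35.8% of all genes tested and the lowest for 37.4%. The part of these and other properties of that library in the excess was not tested.

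**Figure D5:**
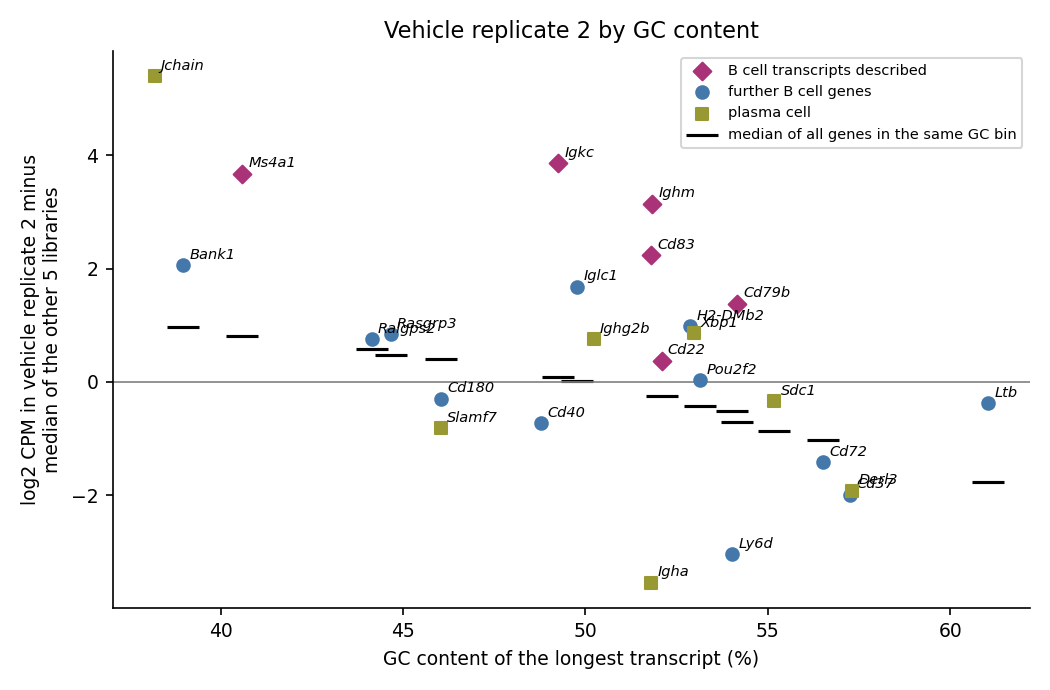
Log2 CPM of vehicle replicate 2 minus the median over the other 5 libraries (y axis) against GC content of the longest transcript (x axis, percent) for the B cell transcripts described (diamonds), further B cell genes (circles) and plasma cell genes (squares) that passed the filter; bars give the median of all genes in the same GC bin. The 6 diamonds lie above their bars, as do most of the circles and most of the squares, while others, among them Ly6d, Cd37 and Igha, lie below theirs.

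The excess of vehicle replicate 2 did not extend to all B cell genes. Of 31 further B cell genes, 14 were highest in vehicle replicate 2 and 7 were lowest there. Among the 12 of them that passed the filter on low counts, 5 (41.7%) were highest and 3 (25%) lowest there. Of all genes tested, 35.8% were highest and 37.4% lowest in that library, so these counts show no excess particular to the further B cell genes. Cd37 was at 0.368 CPM in vehicle replicate 2 and at 1.43 to 2.06 CPM in the other 5 libraries. Genes of its GC content were also lower there (median deviation −1.02 on the log2 scale, against −1.99 for Cd37). In contrast, Tnfrsf13b had 22 counts in vehicle replicate 2 and 4 to 7 elsewhere, and Cr2 had 16 and 0 to 4. Neither passed the filter. Pax5, the factor that sets B cell identity, had 1 to 4 counts in each library, with 4 in vehicle replicate 2.

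Only 12 of the 31 further genes passed the filter on low counts, and none of them met the criteria of the study in either direction, where 2.86% of all genes did. Their median log2 fold change was 0.18, with 8 positive and 4 negative, beside 6501 positive and 6876 negative among all genes tested. Those with the smallest p were Rasgrp3, Cd72, Bank1 and Pou2f2, each with an adjusted p of 0.852 (edgeR). Rasgrp3, which activates Ras downstream of the receptor, was at 4.02, 7.12 and 5.87 CPM with vehicle against 3.74, 3.94 and 2.72 CPM with insulin (log2 fold change −0.71 ± 0.33, SE). It was the 1 gene of the 12 whose groups did not overlap. Of all genes tested, 6.04% did not overlap and were lower with insulin, and 12.3% did not overlap in either direction. Cd72, an inhibitory co-receptor like CD22, had a log2 fold change of 1.09 ± 0.54, and Pou2f2, the B cell octamer-binding factor, 0.80 ± 0.45. Bank1, a B cell adaptor protein, had −1.45 ± 0.82, and its 3.19 CPM in vehicle replicate 2 stood beside 0.217 to 2.05 CPM elsewhere. The groups overlapped for these last 3. Cd72 shares 1423 of its 3422 exonic bases with Tesk1 on the other strand, so its counts are uncertain.

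Of 20 genes of B cell receptor signalling, most of which other leukocytes and liver cells also express, 19 were tested and none met the criteria of the study. Their median log2 fold change was 0.25, with 16 positive and 3 negative, beside 6501 positive and 6876 negative among all genes tested. The groups did not overlap for 3 of the 19, Vav2 and Nfatc1 (higher with insulin) and Malt1 (lower). Of all genes tested, 12.3% did not overlap in either direction. The smallest p values belonged to Rac2, Vav1, Nfatc1 and Syk, with log2 fold changes of 0.99 ± 0.48, 0.71 ± 0.45, 0.50 ± 0.32 and 0.54 ± 0.40 (SE) and an adjusted p of 0.852 each (edgeR). Rac2, a small GTPase of blood cells, was lowest in vehicle replicate 2 at 4.85 CPM and highest in insulin replicate 1 at 29.5 CPM. Syk, the kinase that binds the CD79 chains, was highest in the same insulin library, at 13.2 CPM against 4.39 to 8.72 CPM elsewhere. Insulin replicate 1 was the highest library for 11 of the 20 genes, for which no share over all genes is given here.

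Transcripts of other blood cells varied beside these. The summed level of 8 erythroid markers was 627, 1588 and 413 CPM in vehicle replicates 1, 2 and 3 and 312 to 478 CPM with insulin, and 7 of the 8 were highest in vehicle replicate 2, as most of the B cell transcripts were. Of the 5 tested, 4 globin genes met the criteria of the study, lower with insulin, as did 1.86% of all genes tested. Their log2 fold changes were −3.20 to −1.03, and −0.62 to −0.073 without vehicle replicate 2. No neutrophil or T and NK marker tested met the criteria. Neutrophil markers summed to 48.0, 77.6 and 4.96 CPM with vehicle against 71.5, 33.2 and 31.3 CPM with insulin, with Mpo and Camp, which mark early neutrophils, at 0 to 3 counts. T and NK cell markers summed to 40.4, 9.39 and 9.30 CPM with vehicle against 27.5 to 40.9 CPM with insulin, while Cd3e had 1 to 8 counts. Ccl5 gave 30.7, 0.859 and 1.48 CPM of these sums with vehicle and 21.3 to 34.1 CPM with insulin. Of the 20 T and NK markers, 3 were highest in vehicle replicate 2. The part of blood content in the B cell values was not tested.

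The genes outside these lists whose profile over the 6 libraries came nearest to the mean of the 6 B cell transcripts were Kcnab1, Spata22, 2310043P16Rik, Gm12396, Rpl35a-ps2, Snrpe, Rps27a-ps2 and Pkia. Their mean absolute difference from that profile was 0.183 to 0.251 on the log2 scale, over 6 libraries, and all 8 were highest in vehicle replicate 2, as choosing them by this profile favours. The same measure was 0.311 for Cd79b and 0.388 for Ighm, and up to 0.619 for Cd83. None of the 8 is on a B cell list. Rpl35a-ps2 and Rps27a-ps2 are pseudogenes of ribosomal proteins, whose counts can include reads of the parent genes.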

How the data were processed

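The authors deposited raw counts of reads per gene, 1 column for each of 6 libraries, and every column was used. They prepared libraries by NEBNext Ultra and aligned the reads to build 38 (mm10) with Bowtie2 2.2.3. The counting program, annotation and strand setting are not given in the sources used here. Bowtie2 does not splice, which can lower counts over short exons and over the junctions of V segments. Genes, positions, exon lengths and the V segment sequences came from GENCODE release 21 for mouse (build 38), which held 54495 of the 54532 identifiers (99.9%). No protein sequences were used. One gene of the lists is not reported here by name.

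Groups and replicate numbers came from the labels. The 2 groups were compared with the quasi-likelihood test of edgeR 4.0.16 (R 4.3.3; TMM, no covariate, filterByExpr at 10 counts and a total of 15) on all 13377 genes kept, with Benjamini-Hochberg adjustment. The fit was tested on simulated counts. At an adjusted p under 0.05 (edgeR) it called 19 of 100 genes changed by 1 on the log2 scale and 92 of 100 changed by 2. Most changes of the smaller size were thus missed there, so a gene that did not pass is not shown to be unchanged. The changed genes were drawn from levels above those of most B cell transcripts and further B cell genes. No simulated library stood apart as vehicle replicate 2 does. These rates therefore do not carry over to the B cell genes. CPM divides counts by the TMM effective library size; log2 CPM used a prior count of 2. Shares have exact Clopper-Pearson 95% intervals, and a count of 0 a limit of 3 counts. No molecular identifiers are named, so these cover counting error only. The biological coefficient of variation was 0.357.

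The transcripts and gene lists (further B cell, B cell receptor signalling, plasma cell, T and NK, dendritic, Kupffer, neutrophil, erythroid, sinusoidal endothelial, hepatocyte) were chosen with earlier results of these data known. Named are the 9 transcripts, the 4 genes with the smallest p of the first 2 lists, and the 8 genes whose centred log2 CPM profile lay nearest to the mean profile of the 6 transcripts tested; other genes were named after their values were seen. Alternatives were RLE factors, no filter on low counts, DESeq2 1.42.0 (the authors' tool), voom with quality weights (limma 3.58.1), a replicate block, a GC offset (loess span 0.5, 13367 genes with a GC value) and leaving out each library, on the genes kept.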

Additional observations from a re-analysis of the deposited data

How the results depend on the processing

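No gene passed an adjusted p under 0.05 by edgeR with all libraries or in any of the 12 alternatives, and the smallest adjusted p of these was 0.117, without vehicle replicate 1. The genes at an unadjusted p under 0.05 numbered 383 by edgeR with all libraries, 548 by DESeq2, 213 by voom, 742 with no filter on low counts, and 90 to 1323 with 1 library left out (90, 128 and 114 without insulin replicates 1, 2 and 3; 1323, 490 and 876 without vehicle replicates 1, 2 and 3). Of the further B cell and receptor signalling genes, 0 met the criteria of the study with all libraries, 1 with no filter on low counts (Rac2), and 0 to 5 with 1 library left out. The 5 were Bank1, Ly6d, Rasgrp3, Vav1 and Rac2 without vehicle replicate 1, and Cd72 was the 1 gene without vehicle replicate 3 or insulin replicate 2. The median log2 fold change of the 6 B cell transcripts was −1.66. It ran from −2.33 to 0.14 with 1 library left out and was 0.0037 with voom and sample quality weights. Its sign turned without vehicle replicate 2 and with voom; the cause was not tested. Over 12 alternatives the sign of the fold change turned in 2 for Cd79b, Cd22 and Igkc, in 1 for Ighm and in 0 for Ms4a1 and Cd83. With the replicate number as a block, 2 further genes met the criteria of the study (Ly6d and Rac2) and the median was −0.91. Same-numbered libraries did not deviate together (correlations −0.039, 0.069 and 0.017 across 13377 genes), 1 of 3 vehicle and 2 of 3 insulin libraries correlated best with their own number, and the labels give the numbers no shared source. Cd79a, Ighd and Fcmr, with totals of 40 to 64 counts, did not pass the filter on low counts, so no fold change is given for them.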

Other observations

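Among lists that mark other cells of the liver, none had a member at an adjusted p under 0.05 (edgeR). Kupffer cell and macrophage markers summed to 464, 346 and 632 CPM with vehicle against 438 to 789 CPM with insulin, highest in insulin replicate 1. In that library Syk, Rac2, the IgG constant regions and the number of V segments with a count were also at their highest. Sinusoidal endothelial markers summed to 182 to 332 CPM with vehicle against 201 to 215 CPM with insulin. Of the 7 hepatocyte markers found by name, 5 had a negative log2 fold change, and their sum was highest in vehicle replicate 2.

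On the plasma cell list, Ighg2b was the 1 gene of 7 tested that met the criteria of the study, with a log2 fold change of 2.51 ± 1.07 (SE) and an adjusted p of 0.852 (edgeR). Its counts were 2, 10 and 1 with vehicle and 68, 20 and 7 with insulin, so that the groups overlapped. Of all genes tested, 2.86% met the criteria. Slamf7, a surface protein of plasma and NK cells, was at 0.423, 0.246 and 0.286 CPM with vehicle against 0.991, 0.736 and 0.507 CPM with insulin, with no overlap, as for 12.3% of all genes tested in either direction (log2 fold change 1.21 ± 0.53, SE; adjusted p 0.852, edgeR).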
